A study of Mus musculus with 44 samples.

Results

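The 40 genes described here act in G2 phase and mitosis, and were followed in mouse macrophages and microglia under the cytokine TGFb1 and in cells sorted from the injured spinal cord. They were taken by name, and the tables write their symbols in capitals (MKI67, TOP2A and CDK1, for example). All 40 had a row among the 12335 genes of the culture table. In the table of the cord cells, 32 of the 40 had a row among 8218 genes, and Ccnb1, Bub1, Kif20a, Nusap1, Anln, Nek2, Ttk and Melk were not analysed there.

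A cell enters mitosis when Cdk1, bound to a B-type cyclin, becomes active. Kinases such as Plk1 and the aurora kinases then help to build the spindle, the checkpoint proteins hold the cell until every chromosome is attached, and the anaphase-promoting complex marks cyclins and other proteins for breakdown so that the chromosomes can part. Most of these genes are transcribed in a narrow window of the cell cycle and are nearly silent in resting cells, so their RNA is widely used as a sign of dividing cells. Bone marrow macrophages divide in response to M-CSF, and microglia, the resident macrophages of brain and cord, can renew themselves by division.

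RNA was sequenced from 44 libraries of C57BL/6 mice. Macrophages that M-CSF had raised from bone marrow gave 11 culture libraries (2 each at 0, 1, 3, 16 and 20 h of TGFb1 at 100 ng/ml and 1 at 6 h). Microglia from primary glial cultures of newborn mice gave 12 (2 at each of the same times). From the cord, sorted microglia gave 13 libraries (3 at time 0 and 2 each at 1 h, 16 h and days 1, 3 and 7) and sorted monocytes, or the macrophages that come from them, gave 8 (2 each at 16 h and days 1, 3 and 7). A laminectomy and a contusion at 200 kdyn injured the cord. Time 0 mice carry the same injured label as the rest, and no gate is named for the sort. No later untreated culture was among the samples, so TGFb1 and time in culture cannot be told apart. No label says that libraries of a group came from separate animals or cultures, so p-values cover only how much these libraries vary.

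Values are read counts that had been scaled by the authors, with a value of 1 where no read was counted. The cultures were the deeper libraries, at an estimated 1172370 to 1881000 reads for macrophages and 1746620 to 2249290 for microglia. Cord microglia had 31459 to 187973 reads and monocytes 133911 to 731692. A single read was worth 0.853 to 4.67 in cord microglia and 0.170 to 0.850 in monocytes. In monocytes a gene without reads was thus listed above a gene with 1 read. Of the 32 measured genes, 2 to 27 had no read in a cord microglia library, with the most in day 3 replicate 2 (27 genes) and time 0 replicate 3 (24 genes). Values were fractions of a read in most libraries for 12 of the 40 genes in culture (Mki67, Ube2c, Birc5, Ccnb1, Cdc20, Cks2, Cks1b, Racgap1, Nek2, Ttk, Pbk and Stmn1) and for 3 of 32 in the cord (Mki67, Cks2 and Stmn1). How such fractions arose is not stated, so these levels are uncertain. Homeostatic microglia genes (9 of 10 in the culture table) took 0.595 to 0.832% of a cultured microglia library and 0.172 to 0.324% of a macrophage one. Of these, Sall1, a factor of microglia, had no read in any macrophage library. P2ry12 did not set the cells apart at 20 h, at 14.9 and 18.2 in macrophages and 15.9 and 18.6 in microglia. Tmem119 had reads in macrophages at 16 and 20 h (6.08 to 17.8), below microglia at those times (35.4 to 66.4).

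In culture the mitosis and G2 genes took a larger share of the RNA late under TGFb1 in macrophages and a smaller one in microglia. Their summed value was 0.232 and 0.213% of the macrophage libraries at 0 h. It was 0.245 and 0.223% at 1 h, 0.226 and 0.215% at 3 h and 0.270% in the 6 h library. At 16 h it reached 0.357 and 0.366%, and at 20 h 0.397 and 0.382%. The 4 libraries of 16 and 20 h thus lay above the 7 earlier ones. In microglia the share was 0.0893 and 0.0849% at 0 h, 0.0845 and 0.0886% at 1 h and 0.0751 and 0.0698% at 3 h. It was 0.0635 and 0.0627% at 6 h, 0.0571 and 0.0563% at 16 h and 0.0553 and 0.0614% at 20 h. The 6 libraries from 6 h on lay below the 6 before them. In bulk RNA, fewer cells with these transcripts and less of the transcripts per cell cannot be told apart.

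**Figure D1:**
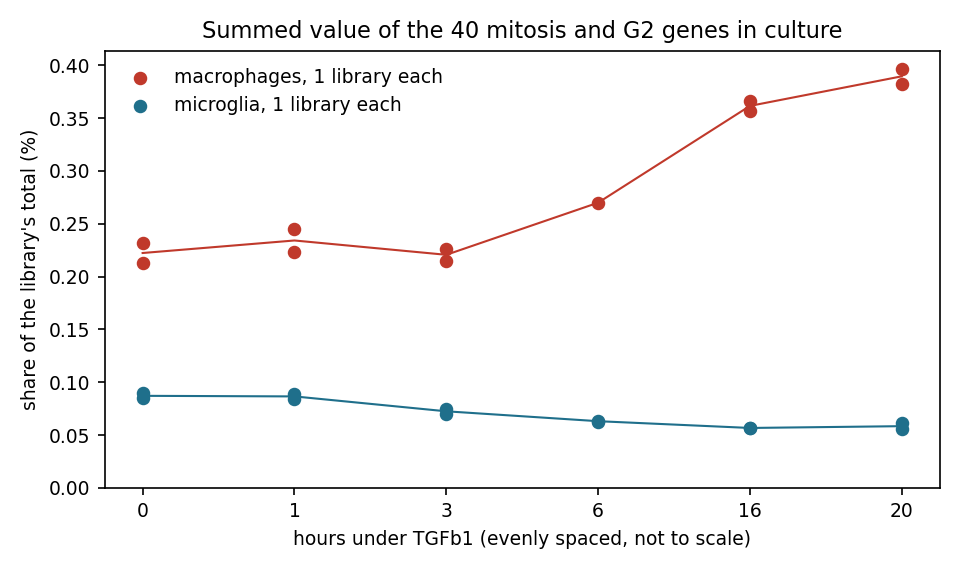
Summed value of the 40 genes as a percentage of the library's total (y axis) by hours under TGFb1 (x axis, evenly spaced), with 1 point per library and a line through the group means. The macrophage points lie at 0.213 to 0.270% up to 6 h and at 0.357 to 0.397% at 16 and 20 h, and the microglia points decline from 0.0849 and 0.0893% at 0 h to 0.0553 and 0.0614% at 20 h.

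Each gene was tested with limma on log2(value + 1), and called at a Benjamini-Hochberg adjusted p under 0.05 (adjusted over the whole table). This scale understates the change of low genes. At 16 and 20 h against 0 h, 17 of the 40 genes rose in macrophages and none fell, against 6.32% of all genes called higher. The fitted change was positive for all 40, with a median of 0.71 on the log2 scale and of 0 over all genes. For 27 genes every library of 16 and 20 h was above both of 0 h, an order that was not counted over all genes. The count rests in part on the 0 h libraries, since it fell without either of them, which leaves 1 library at 0 h. Fewer of all genes were called higher then too. With any library left out the median change of the 40 stayed at 0.66 to 0.75. Of the 17 genes, 13 were followed through 17 alternatives. Ube2c, Birc5, Nusap1 and Stmn1 were called in all of them. Cenpa and Cks1b kept their call in 16, Cenpe in 15, Prc1 in 14, Kif20a in 13, Cdk1, Ccnb1 and Bub1b in 12 and Mki67 in 11.

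In microglia, 12 of the 40 genes fell at 16 and 20 h against 0 h and none rose, against 1.51% of all genes called lower. The fitted change was negative for 39, with a median of −0.62 beside 0 over all genes. Bub1, which recruits checkpoint proteins to kinetochores, was the exception at 0.21 (SE 0.45, adjusted p = 0.97). For 25 genes every library of 16 and 20 h was below both of 0 h, which was likewise not counted over all genes. The count too depends on the 0 h libraries, since it fell without either of them, and so did the number of all genes called lower. With any library left out the median change of the 40 stayed at −0.83 to −0.52. Of 10 genes followed through 16 alternatives, Top2a and Ube2c stayed called in all, Birc5, Cdca8, Plk1 and Tacc3 in 15, Cenpa in 14, Nusap1 in 13, Aurkb in 10 and Nek2 in 9.

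The difference between the 2 changes was tested in the same fit. At 16 and 20 h it passed for 21 of the 40 genes, all with the macrophage change above the microglia one, against 2.49% of all genes. The difference was positive for 40 of 40, with a median of 1.43 beside −0.011 over all genes. The count fell without any 0 h library of either cell type, as did that of all genes called. With any library left out the median stayed at 1.35 to 1.57. Not all of these genes were followed through the 21 alternatives. Of those followed, Ube2c, Birc5, Cenpa, Nusap1, Top2a, Plk1, Tacc3, Cdca8, Stmn1 and Cks1b passed in all, Cdk1 in 20 and Mki67 and Ccnb1 in 18. Ube2c, Birc5, Cenpa and Nusap1 were called in each cell type alone, up in macrophages and down in microglia. Of the others, 13 were called in macrophages alone, 8 in microglia alone and 15 in neither.

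**Figure D2:**
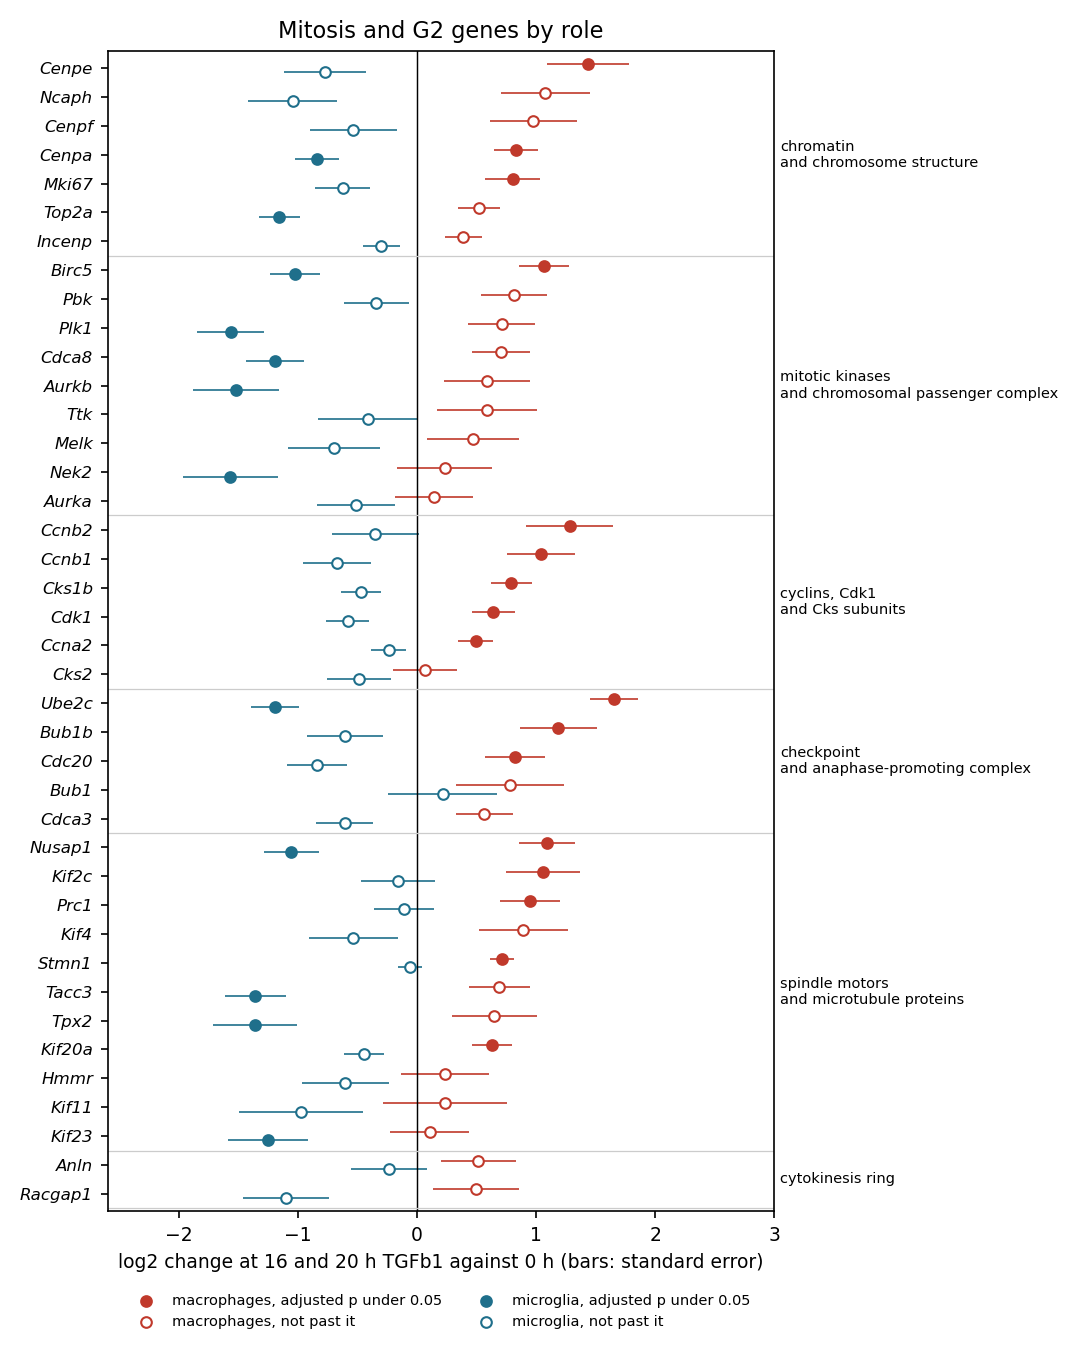
Log2 change at 16 and 20 h of TGFb1 against 0 h (x axis, bars are standard errors) for the 40 genes (y axis, grouped by role), in macrophages and microglia, with filled points at an adjusted p under 0.05. All macrophage points lie to the right of 0, with 17 filled, and 39 of the 40 microglia points lie to the left, with 12 filled.

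Among the cyclins, Cdk1 and the Cks subunits, 5 of 6 rose in macrophages and none was called in microglia. Cdk1, the kinase that starts mitosis, stood in macrophages at 197 and 157 at 0 h, 218 and 229.6 at 1 h, 218 and 189.6 at 3 h, 264 at 6 h, 307 and 272 at 16 h, and 276 and 245 at 20 h. In microglia Cdk1 was at 58.8 and 48.2 at 0 h, 51.1 and 77.1 at 1 h, 55.03 and 56.1 at 3 h, 49.5 and 40.9 at 6 h, 38.8 and 27.5 at 16 h, and 32.6 and 44.2 at 20 h. The 16 and 20 h libraries of macrophages were above those of 0 h and the microglia ones below, with a change of 1.56-fold in macrophages (log2 change 0.64, SE 0.18, adjusted p = 0.0233) that passed and one in microglia (log2 change -0.58, SE 0.18, adjusted p = 0.10) that did not. The difference of the changes was 1.22 (SE 0.26, adjusted p = 0.00659).

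Ccnb1, which encodes the cyclin B1 partner of Cdk1, was at 34.2 and 73.6 at 0 h, 88.6 and 69.4 at 1 h, 81.3 and 40.4 at 3 h, 72.6 at 6 h, 109 and 88.5 at 16 h, and 100.2 and 124 at 20 h in macrophages. Its 0 h libraries stood more than 2-fold apart and both lay below the later groups of 16 and 20 h (log2 change 1.04, SE 0.29, adjusted p = 0.0199). The call was kept under 12 of 17 alternatives. The log2 change was 0.50 (adjusted p = 0.40 by limma) without 0 h replicate 1 and 1.58 (adjusted p = 0.00305) without 0 h replicate 2. In microglia Ccnb1 was at 31.2 and 33.9 at 0 h, 35.3 and 32.1 at 1 h, 20.1 and 26.1 at 3 h, 12.6 and 12.3 at 6 h, 18.5 and 22.4 at 16 h, and 16.8 and 22.9 at 20 h. It was lower from 3 h on than in either 0 h library, without passing at 16 and 20 h (log2 change -0.68, SE 0.29, adjusted p = 0.32). Ccnb2, its close relative, was at 33.9 and 44.1 at 0 h, 78.8 and 89.6 at 16 h, and 123 and 95.1 at 20 h in macrophages. This was a 2.43-fold rise (log2 change 1.28, SE 0.36, adjusted p = 0.0242). Ccna2, the cyclin of S and G2 phase, rose 1.41-fold there (log2 change 0.49, SE 0.15, adjusted p = 0.031).

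Cks1b and Cks2 encode small subunits that help cyclin-bound kinases hold their substrates. Cks1b was at 99.8 and 82 at 0 h, 118 and 95.5 at 1 h, 125 and 139.6 at 3 h, 121 at 6 h, 165 and 159.6 at 16 h, and 147 and 159 at 20 h in macrophages. Every library from 1 h on except 1 was above 0 h replicate 1, and Cks1b rose 1.73-fold (log2 change 0.79, SE 0.17, adjusted p = 0.0031). In microglia Cks1b was at 34.3 and 35.2 at 0 h, 36.98 and 47.96 at 1 h, 33.1 and 41.5 at 3 h, 28.8 and 33.9 at 6 h, 23.3 and 27.5 at 16 h, and 25.7 and 22.7 at 20 h. The lower values at 16 and 20 h did not pass (log2 change -0.47, SE 0.17, adjusted p = 0.19). Its relative Cks2 showed no such course. It was at 45.9 and 47.6 at 0 h, 52.5 and 31.6 at 1 h, 39.05 and 43.8 at 3 h, 41.5 at 6 h, 42.5 and 54.3 at 16 h, and 44.1 and 56.5 at 20 h in macrophages. The groups overlapped there (log2 change 0.06, SE 0.27, adjusted p = 0.98). Cks2 in microglia was at 17.7 and 16.5 at 0 h, 19.2 and 15.5 at 1 h, 16.8 and 15.1 at 3 h, 13.2 and 20.6 at 6 h, 13.6 and 11.2 at 16 h, and 9.33 and 14.1 at 20 h. The values of 16 and 20 h were below 0 h without passing (log2 change -0.49, SE 0.27, adjusted p = 0.55).

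Of the 5 genes of the checkpoint and the anaphase-promoting complex, 3 rose in macrophages and 1 fell in microglia. Ube2c, the ubiquitin-carrying enzyme of that complex, had the smallest p of the 40 in macrophages. It was at 58.7 and 70.4 at 0 h, 104 and 114 at 1 h, 115 and 168 at 3 h, 209.6 at 6 h, 192 and 221 at 16 h, and 217 and 189.6 at 20 h. Both 1 h libraries were already above both of 0 h, and the fold at 16 and 20 h was 3.15 (log2 change 1.65, SE 0.20, adjusted p = 6.1e-06). In microglia Ube2c was at 53.7 and 48.4 at 0 h, 57.3 and 65.1 at 1 h, 44.1 and 34.8 at 3 h, 40.5 and 24.3 at 6 h, 21.9 and 27.4 at 16 h, and 19.8 and 18.6 at 20 h. All 4 values of 16 and 20 h were below the 6 of 0 to 3 h, and the fall was 2.29-fold (log2 change -1.19, SE 0.20, adjusted p = 0.00116). The difference between the cell types was the largest of the 40, at 2.85 on the log2 scale (SE 0.28, adjusted p = 4.0e-06).

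Bub1b, a checkpoint protein that restrains the complex, was at 53.6 and 51.4 at 0 h, 54.4 and 58.4 at 1 h, 30.1 and 70.2 at 3 h, 94.8 at 6 h, 105 and 107 at 16 h, and 129 and 145 at 20 h in macrophages. It was highest at 20 h and rose 2.28-fold (log2 change 1.19, SE 0.32, adjusted p = 0.0182). Cdc20, which activates the complex, was at 47 and 74.05 at 0 h, 53.95 and 62.02 at 1 h, 52.5 and 52.7 at 3 h, 71.1 at 6 h, 68.5 and 130.2 at 16 h, and 130.0 and 106 at 20 h in macrophages. Its rise was called although 1 library of 16 h lay within the range of 0 h (log2 change 0.83, SE 0.25, adjusted p = 0.0366). In microglia Cdc20 was at 31.9 and 32.9 at 0 h, 12.6 and 18.5 at 16 h, and 21.2 and 19.5 at 20 h, and this did not pass (log2 change -0.84, SE 0.25, adjusted p = 0.0856). Bub1 and Cdca3, the latter thought to promote entry into mitosis, were not called in either cell type.

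Among 9 genes of mitotic kinases and the chromosomal passenger complex, 5 fell in microglia and 1 rose in macrophages. Birc5, or survivin, a subunit of that complex, did both. It was at 249.7 and 202 at 0 h, 224 and 227 at 1 h, 283 and 281 at 3 h, 301 at 6 h, 513 and 405 at 16 h, and 528 and 450.2 at 20 h in macrophages. The 16 and 20 h libraries were above the 7 others, a 2.09-fold rise (log2 change 1.07, SE 0.21, adjusted p = 0.00131). In microglia Birc5 was at 43.5 and 58.4 at 0 h, 58.97 and 40.7 at 1 h, 39.1 and 25.5 at 3 h, 29.1 and 23.6 at 6 h, 25.3 and 22.4 at 16 h, and 31.3 and 19.5 at 20 h. There it fell 2.04-fold (log2 change -1.03, SE 0.21, adjusted p = 0.00606). Cdca8, or borealin, another subunit, was at 33.4 and 49.2 at 0 h, 32.99 and 45.9 at 1 h, 37.8 and 24.02 at 3 h, 32.1 and 24.03 at 6 h, 16.02 and 13.4 at 16 h, and 14.99 and 26.5 at 20 h in microglia. The fall was 2.29-fold (log2 change -1.20, SE 0.24, adjusted p = 0.00645). Its macrophage values of 103 and 100.4 at 0 h, 158 and 179 at 16 h, and 188 and 143 at 20 h did not pass (log2 change 0.71, SE 0.24, adjusted p = 0.0641).

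Plk1, the kinase with roles from mitotic entry to cell division, was at 30.5 and 26.9 at 0 h, 21.9 and 16.9 at 1 h, 21.1 and 15.3 at 3 h, 9.55 and 10.01 at 6 h, 6.75 and 14.5 at 16 h, and 7.49 and 8.85 at 20 h in microglia. The 6 libraries from 6 h on were below the 6 earlier ones, and the fall at 16 and 20 h was 2.96-fold (log2 change -1.56, SE 0.28, adjusted p = 0.00228). In macrophages Plk1 was at 113 and 146 at 0 h, 153 and 235 at 16 h, and 203 and 269 at 20 h. All 4 late libraries were above 0 h, but the change did not pass (log2 change 0.71, SE 0.28, adjusted p = 0.11). Aurkb, the kinase of the passenger complex, was at 13.1 and 7.42 at 0 h, 10.7 and 8.67 at 1 h, 7.74 and 8.01 at 3 h, 7.81 and 11.2 at 6 h, 2.53 and 3.93 at 16 h, and 5.29 and 0.885 at 20 h in microglia. All 4 late values were below the 8 earlier ones (log2 change -1.52, SE 0.36, adjusted p = 0.0212), at a level of few reads. Nek2, a kinase of centrosome separation, was at 14.5 and 9.74 at 0 h, 6.32 and 2.36 at 16 h, and 3.53 and 2.21 at 20 h there (log2 change -1.57, SE 0.40, adjusted p = 0.0347). Aurka, the kinase of the spindle poles, was called in neither cell type. It was at 91.8 and 80.8 at 0 h, 126 and 94.3 at 16 h, and 69.7 and 98.4 at 20 h in macrophages (log2 change 0.14, SE 0.33, adjusted p = 0.89). Ttk, a kinase of the spindle checkpoint, was low, at 3.78 and 11.02 at 0 h, 15.1 and 10.7 at 16 h, and 10.6 and 6.68 at 20 h in macrophages (log2 change 0.59, SE 0.42, adjusted p = 0.43).

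Of 7 genes of chromatin and chromosome structure, 3 rose in macrophages and 2 fell in microglia. Mki67, which coats mitotic chromosomes, was at 182 and 156 at 0 h, 174 and 137 at 1 h, 173 and 157 at 3 h, 191 at 6 h, 265 and 281 at 16 h, and 329.6 and 309 at 20 h in macrophages. The 4 late libraries were above the 7 others, a 1.75-fold rise (log2 change 0.80, SE 0.23, adjusted p = 0.0263). In microglia Mki67 was at 50.3 and 32.2 at 0 h, 52.2 and 32.1 at 1 h, 34.4 and 30.6 at 3 h, 35.2 and 25.9 at 6 h, 31.5 and 17.8 at 16 h, and 24.5 and 31.7 at 20 h. The lower late values did not pass (log2 change -0.63, SE 0.23, adjusted p = 0.21). Top2a, the topoisomerase that untangles sister chromatids, had the smallest p of the 40 in microglia, at 95.02 and 103 at 0 h, 80.8 and 85.8 at 1 h, 84.3 and 51.7 at 3 h, 55.5 and 54.5 at 6 h, 31.2 and 47.9 at 16 h, and 47.6 and 51.3 at 20 h. Its fall was 2.23-fold (log2 change -1.16, SE 0.17, adjusted p = 3.5e-04). In macrophages Top2a was at 371 and 273 at 0 h, 310.1 and 344 at 1 h, 319 and 281 at 3 h, 314 at 6 h, 433 and 461 at 16 h, and 476 and 457 at 20 h. All late libraries were above the earlier ones, with an adjusted p just outside the threshold against 0 h (log2 change 0.52, SE 0.17, adjusted p = 0.055).

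Cenpa, the histone that marks centromeres, was at 108 and 102 at 0 h, 167 and 117 at 1 h, 186 and 179 at 3 h, 153 at 6 h, 166 and 209 at 16 h, and 179 and 198 at 20 h in macrophages. It was higher in all 9 libraries under TGFb1 than in both of 0 h. Its rise at 16 and 20 h was 1.78-fold (log2 change 0.83, SE 0.18, adjusted p = 0.00388). In microglia Cenpa was at 58.8 and 52.9 at 0 h, 79.2 and 78.01 at 1 h, 60.2 and 42.2 at 3 h, 25.2 and 37.7 at 6 h, 28.7 and 30.6 at 16 h, and 31.7 and 31.8 at 20 h. The highest values were those of 1 h, and the fall at 16 and 20 h was called (log2 change -0.84, SE 0.18, adjusted p = 0.0109). Cenpe, a kinetochore motor, was at 28.4 and 30.6 at 0 h, 67.1 and 45.1 at 1 h, 55.1 and 30.4 at 3 h, 37.8 at 6 h, 87.7 and 76.4 at 16 h, and 74.6 and 88.7 at 20 h in macrophages. The log2 change was 1.44 (SE 0.34, adjusted p = 0.00784). Incenp, the scaffold of the passenger complex that was counted with the chromatin genes, followed another course in macrophages. It was at 357 and 290.1 at 0 h, 404 and 309.6 at 1 h, 254 and 241 at 3 h, 258 at 6 h, 414 and 414 at 16 h, and 444 and 417 at 20 h. The 3 and 6 h libraries were below all others, so that Incenp was called at 16 and 20 h against 3 and 6 h (log2 change 0.74, SE 0.14, adjusted p = 7.7e-04) but not against 0 h (log2 change 0.39, SE 0.15, adjusted p = 0.11).

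Among 11 spindle motors and microtubule proteins, 5 rose in macrophages and 4 fell in microglia. Nusap1, which bundles spindle microtubules, was at 53.6 and 57.5 at 0 h, 52.5 and 58.4 at 1 h, 65.5 and 52.7 at 3 h, 62.2 at 6 h, 125 and 100.3 at 16 h, and 111 and 147 at 20 h in macrophages. No library up to 6 h came near those of 16 and 20 h, and Nusap1 rose 2.13-fold (log2 change 1.09, SE 0.23, adjusted p = 0.00318). In microglia Nusap1 was at 17.4 and 12.99 at 0 h, 13.2 and 13 at 1 h, 11.2 and 10.2 at 3 h, 10.4 and 12.02 at 6 h, 5.90 and 6.28 at 16 h, and 6.17 and 8.85 at 20 h. This was a 2.08-fold fall (log2 change -1.06, SE 0.23, adjusted p = 0.0125). Stmn1, which destabilises microtubules and is also abundant outside mitosis, was at 400.4 and 337 at 0 h, 419.7 and 361 at 1 h, 418 and 360.2 at 3 h, 383 at 6 h, 588 and 545 at 16 h, and 630.1 and 647 at 20 h in macrophages. It had a 1.64-fold rise of small error (log2 change 0.71, SE 0.10, adjusted p = 4.9e-05). In microglia Stmn1 was at 285 and 301 at 0 h, 268 and 314 at 1 h, 258 and 249.6 at 3 h, 236 and 244 at 6 h, 254 and 303 at 16 h, and 261 and 308 at 20 h. The groups overlapped (log2 change -0.06, SE 0.10, adjusted p = 0.95).

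Tacc3, which stabilises the fibres at kinetochores, was at 51.5 and 31.5 at 0 h, 33.8 and 30.3 at 1 h, 41.3 and 27.7 at 3 h, 30.4 and 20.03 at 6 h, 9.27 and 14.1 at 16 h, and 15.9 and 24.8 at 20 h in microglia. The late values made a 2.56-fold fall (log2 change -1.36, SE 0.26, adjusted p = 0.00367). Tpx2, which activates Aurka on the spindle, and Kif23, a motor of the central spindle, also fell in microglia, by 2.57-fold (log2 change -1.36, SE 0.35, adjusted p = 0.0402) and 2.38-fold (log2 change -1.25, SE 0.33, adjusted p = 0.0459). Prc1, which cross-links the central spindle, was at 75.4 and 52.6 at 0 h, 127 and 136 at 16 h, and 128 and 101 at 20 h in macrophages (log2 change 0.95, SE 0.25, adjusted p = 0.0163). Kif20a, a motor needed for the end of division, was at 75.4 and 62.4 at 0 h, 126 and 89.6 at 16 h, and 116 and 99.6 at 20 h there (log2 change 0.63, SE 0.17, adjusted p = 0.0152). Kif2c, which takes microtubules apart, rose 2.08-fold in macrophages (log2 change 1.06, SE 0.31, adjusted p = 0.03). Kif11, Kif4 and Hmmr were called in neither cell type.

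The genes of the cytokinesis ring were called in neither. Racgap1, which guides the ring to the cell's middle, was at 63.4 and 106 at 0 h, 98.2 and 86.8 at 1 h, 46.4 and 67.1 at 3 h, 115 at 6 h, 99.5 and 128 at 16 h, and 105 and 135 at 20 h in macrophages. Its groups overlapped (log2 change 0.49, SE 0.36, adjusted p = 0.45). In microglia Racgap1 was at 34.8 and 24.1 at 0 h, 22.5 and 23.98 at 1 h, 8.60 and 28.6 at 3 h, 9.55 and 19.5 at 6 h, 8.43 and 12.04 at 16 h, and 14.99 and 18.6 at 20 h. All late values were below 0 h, with a wide error (log2 change -1.10, SE 0.36, adjusted p = 0.13). Anln, a scaffold of the ring, had a log2 change of 0.52 in macrophages (SE 0.32, adjusted p = 0.35) and of -0.23 in microglia (SE 0.32, adjusted p = 0.93). Over all roles, the 23 genes not called in macrophages had fitted changes of 0.06 (Cks2) to 1.08 (Ncaph) on the log2 scale. The 28 not called in microglia lay between -1.10 (Racgap1) and 0.21 (Bub1).

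**Figure D3:**
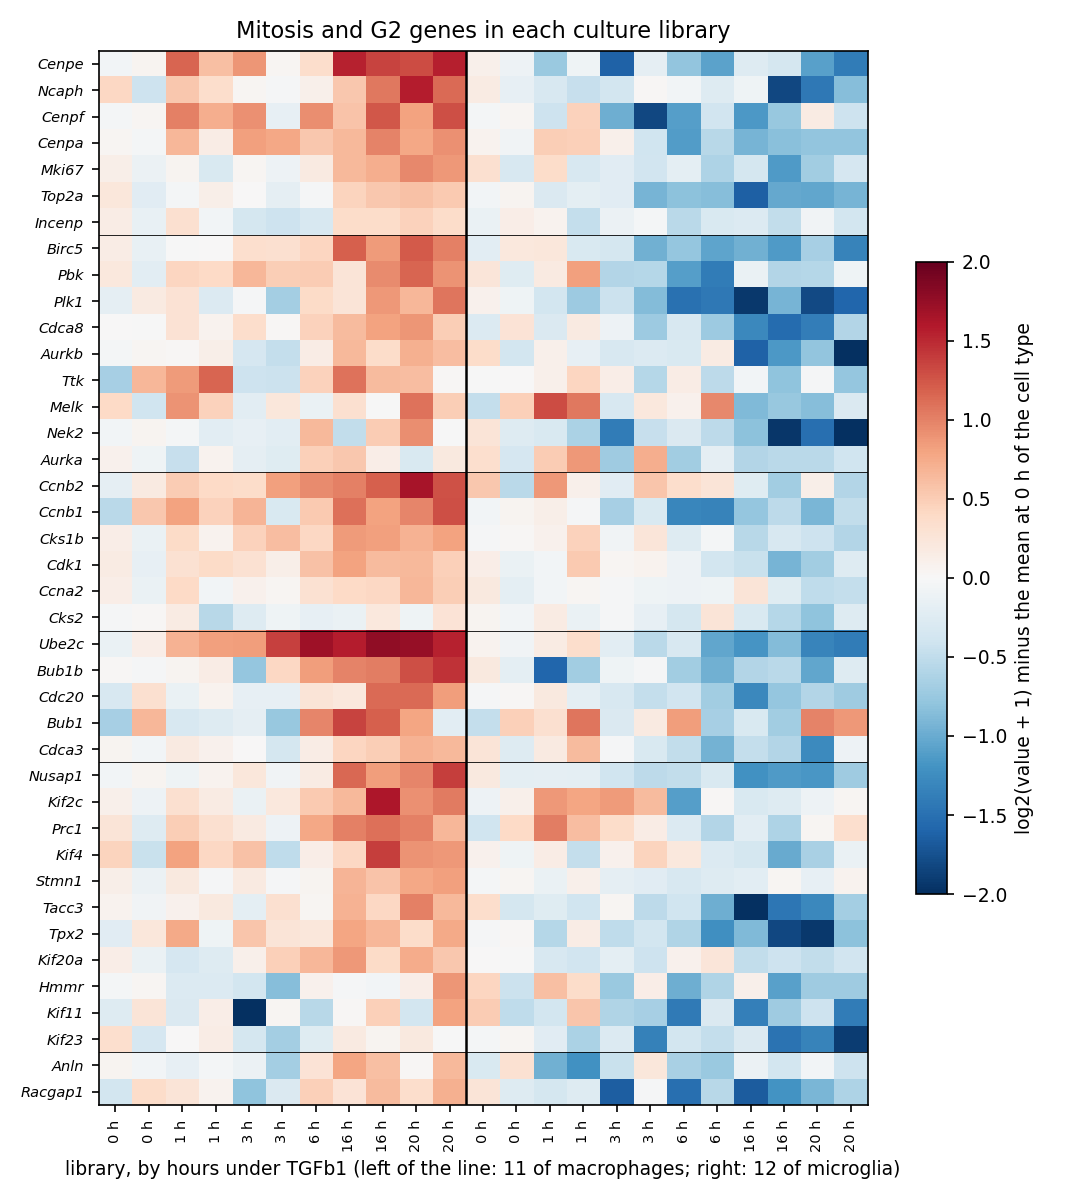
Log2(value + 1) of each of the 40 genes (y axis) in each culture library (x axis, by hours under TGFb1), as the difference from the mean of the same cell type at 0 h, with macrophages left of the line and microglia right of it. The macrophage columns of 16 and 20 h are mostly above their 0 h mean and the microglia columns from 6 h on mostly below theirs.

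At 1 h no member was called in macrophages (median 0.14; 3.01% of all genes called in either direction) or in microglia (0.340%). An unadjusted limma p under 0.05 was found for 2 and 6 of the 40 genes, and for 1738 and 699 of all 12335. At 3 and 6 h, 2 of the 40 genes were called higher in macrophages, a share not above that of all genes (6.80%). The 2 were Ube2c (log2 change 1.40, SE 0.22, adjusted p = 1.3e-04) and Cenpa (log2 change 0.67, SE 0.20, adjusted p = 0.0295). Cenpa was lost, leaving 1 call, without 0 h replicate 1, 0 h replicate 2 or 3 h replicate 1. From 3 and 6 h to 16 and 20 h, 10 genes rose in macrophages, against 10.5% of all genes called higher, and the count was 16 without the 6 h library. They were Stmn1, Incenp, Nusap1, Birc5, Top2a, Mki67, Cdc20, Cenpe, Ncaph and Bub1b. Ncaph, a condensin subunit, was at 45.9 and 25.7 at 0 h, 50.5 and 44.1 at 1 h, 35.3 and 33.9 at 3 h, 37.04 at 6 h, 50.7 and 72.8 at 16 h, and 104 and 76.6 at 20 h (log2 change 1.02, SE 0.34, adjusted p = 0.0401), with its highest values at 20 h.

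In microglia no gene was called at 3 and 6 h by limma (1.16% of all genes called in either direction). Of the 40 genes, 11 had an unadjusted limma p under 0.05, all lower, beside 980 of all 12335 genes in either direction. The change was negative for 35 of 40, with a median of −0.43 beside −0.0078 over all genes. Top2a came closest (log2 change -0.71, SE 0.17, adjusted p = 0.0521). Without 3 h replicate 1 Top2a and Birc5 were called, and without 3 h replicate 2 Racgap1 was. From 3 and 6 h to 16 and 20 h, 3 genes fell, against 0.567% of all genes called lower. These were Aurkb (log2 change -1.34, SE 0.29, adjusted p = 0.0233), Tacc3 (log2 change -0.89, SE 0.21, adjusted p = 0.0409) and Ube2c (log2 change -0.67, SE 0.16, adjusted p = 0.0495). The count was 1 without 6 h replicate 1, 16 h replicate 1 or 20 h replicate 1, and 0 without 3 h replicate 1. The early changes differed between the cell types for Ube2c, Cenpa, Birc5 and the kinase Pbk (4 genes, against 3.14% of all genes), with a log2 difference of 1.92 for Ube2c (SE 0.29, adjusted p = 3.2e-04). That count was 2 without microglia 0 h replicate 1, 0 h replicate 2 or 6 h replicate 2.

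The cell types also differed in level before TGFb1. At 0 h, 34 of the 40 genes were called higher in macrophages than in microglia and none lower, against 21.5% of all genes called higher. Every macrophage library was above every microglia library for 40 of 40, again without a count over all genes. The median difference was 1.76 on the log2 scale, where that of all genes was −0.13. Ube2c and Ccnb1 were among the 6 genes not called, with Nek2, Cenpe, Cenpf and Kif20a. After 16 and 20 h all 40 were called higher in macrophages, against 27.2% of all genes, with a median of 3.18 beside −0.15 for all genes. The ratio ran from 2.14-fold for Stmn1 to 29.5-fold for Ccnb2, with 26.99-fold for Aurkb, 21.2-fold for Plk1 and 18.7-fold for Birc5. These comparisons share their libraries with the changes over time above.

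Markers of other cells were read in the same libraries. Genes of oligodendrocytes and their progenitors (8 of 9 measured) took 0.0677 to 0.0680% of the microglia libraries at 0 h and 0.0570 to 0.0645% at 16 and 20 h. Pdgfra, a receptor of progenitors, fell in microglia from 124 ± 6.84 (SD, n = 2) at 0 h to 50.8 ± 3.34 (SD, n = 4) at 16 and 20 h (log2 change -1.27, SE 0.27, adjusted p = 0.00986), and had no read in any macrophage library. Cspg4, a proteoglycan of progenitors, rose in the same microglia libraries, from 41.6 ± 5.47 (SD, n = 2) to 77.6 ± 7.005 (SD, n = 4; log2 change 0.89, SE 0.19, adjusted p = 0.00843). It also rose in macrophages, from 12.8 ± 2.66 (SD, n = 2) to 87.5 ± 4.48 (SD, n = 4; log2 change 2.69, SE 0.19, adjusted p = 2.7e-09). The other 6 measured genes of the list were not called in microglia. Astrocyte genes (9 of 9) took 0.0179 to 0.0201% of the microglia libraries at every time. The part of these cells in the fall of the mitosis genes was not tested.

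Other cell cycle genes were read from 3 further lists. Of 51 other mitosis genes, 9 rose in macrophages at 16 and 20 h against 0 h and none fell, among them Gtse1 (log2 change 2.25, SE 0.44, adjusted p = 0.0015), Hmgb2 (log2 change 0.81, SE 0.16, adjusted p = 0.00168), Kifc1 (log2 change 1.001, SE 0.20, adjusted p = 0.00199) and Ckap2 (log2 change 1.76, SE 0.40, adjusted p = 0.00489). Of 41 genes of DNA replication and S phase, 3 rose and 1 fell, where 6.32% of all genes were called higher and 5.94% lower, so the share that rose was near that of all genes. Rrm2 and Rrm1, the subunits of the enzyme that makes deoxynucleotides, rose (log2 change 1.06, SE 0.14, adjusted p = 2.5e-05 and log2 change 0.56, SE 0.16, adjusted p = 0.025), as did the clamp loader subunit Rfc5 (log2 change 0.73, SE 0.18, adjusted p = 0.00991), while Pcna, the sliding clamp, fell (log2 change -0.42, SE 0.08, adjusted p = 0.00177). Of 39 G1 cyclins, Cdk inhibitors and genes of the E2F and Rb network, 4 rose and 4 fell. Cdkn1a, the inhibitor p21, rose (log2 change 0.79, SE 0.07, adjusted p = 3.7e-08) and Cdkn1c, a related inhibitor, fell (log2 change -2.79, SE 0.66, adjusted p = 0.00729).

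In microglia, where 1.51% of all genes were called lower at 16 and 20 h, these lists were read in the same way. Of the 51 other mitosis genes 1 fell, a share near that of all genes. It was Cdc25c, a phosphatase that activates Cdk1 (log2 change -1.59, SE 0.38, adjusted p = 0.0211), and of the 41 replication genes none was called. Of the 39 G1 genes, Ccnd1, or cyclin D1, fell (log2 change -0.62, SE 0.10, adjusted p = 6.3e-04) and Ccnd2 rose (log2 change 0.54, SE 0.10, adjusted p = 0.00403). From 3 and 6 h to 16 and 20 h in macrophages, 11 replication genes rose of 41 and none fell, against 10.5% of all genes called higher, led by Rrm1 (log2 change 0.87, SE 0.15, adjusted p = 2.3e-04) and Lig1, a DNA ligase (log2 change 0.69, SE 0.13, adjusted p = 9.0e-04).

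Promoters of these genes were also read. A link between promoter elements and the changes in culture was not tested. RefSeq's promoter windows (GRCm38.p6, 250 bases before to 50 after the start) held 34 windows for 33 of the 40 genes, and Pbk, Stmn1, Incenp, Kif20a, Aurkb, Tpx2 and Ccna2 were not matched. A pair of elements known from cell cycle promoters were searched on both strands, TTTGAA or TTCGAA, the core of the element bound by the DREAM complex and its mitotic partners, and CCAAT, the box bound by NF-Y. The first was in 25 of the 34 windows (73.5%) against 19.2% of all 32851 windows, and within 50 bases of the start in 23 (67.6%) against 5.31%. At least 2 CCAAT boxes were in 55.9% against 11.7%, and both together in 47.1% against 2.31%. Among the other mitosis genes 72.1% of windows held the first element, among the replication genes 6 of 40 and among the G1 genes 23.7%. Of the pairs of matches in these windows, 2 overlapped.

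Stretches from 170 bases before to at most 30 after the start are shown for Ube2c and Top2a (the smallest p in macrophages and in microglia), for Cdk1, for Ccnb2 (the largest ratio between the cell types) and for Birc5 and Nusap1, which were called in both cell types and hold neither element in the stretch. Capitals mark matches on either strand, so that ATTGG is CCAAT and TTCAAA is TTTGAA read on the other strand. They are Ube2c at chr2:164769759-164769927 (plus strand), Cdk1 at chr10:69352909-69353082 (minus strand), Ccnb2 at chr9:70421525-70421724 (minus strand), Top2a at chr11:99024160-99024359 (minus strand), Birc5 at chr11:117849067-117849266 (plus strand) and Nusap1 at chr2:119618128-119618327 (plus strand), each written 5′ to 3′ on the gene's strand.
Ube2c: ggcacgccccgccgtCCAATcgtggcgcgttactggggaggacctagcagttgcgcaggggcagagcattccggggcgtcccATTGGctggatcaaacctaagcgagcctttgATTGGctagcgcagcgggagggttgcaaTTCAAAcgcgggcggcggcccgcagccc
Cdk1: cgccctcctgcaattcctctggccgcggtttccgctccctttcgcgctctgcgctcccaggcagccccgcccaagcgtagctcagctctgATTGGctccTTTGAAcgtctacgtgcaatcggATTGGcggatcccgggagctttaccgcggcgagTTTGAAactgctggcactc
Ccnb2: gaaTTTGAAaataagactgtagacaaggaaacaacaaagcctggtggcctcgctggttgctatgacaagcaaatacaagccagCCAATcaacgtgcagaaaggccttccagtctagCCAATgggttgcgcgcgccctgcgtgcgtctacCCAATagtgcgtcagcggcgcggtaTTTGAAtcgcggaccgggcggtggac
Top2a: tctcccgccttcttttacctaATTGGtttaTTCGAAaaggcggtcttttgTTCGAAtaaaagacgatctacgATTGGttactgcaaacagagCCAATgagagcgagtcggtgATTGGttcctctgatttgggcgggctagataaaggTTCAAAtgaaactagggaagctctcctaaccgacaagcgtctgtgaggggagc
Birc5: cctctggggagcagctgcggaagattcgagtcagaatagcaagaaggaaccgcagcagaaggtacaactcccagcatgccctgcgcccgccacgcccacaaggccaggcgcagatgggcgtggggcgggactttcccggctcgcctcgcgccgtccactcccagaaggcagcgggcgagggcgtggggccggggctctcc
Nusap1: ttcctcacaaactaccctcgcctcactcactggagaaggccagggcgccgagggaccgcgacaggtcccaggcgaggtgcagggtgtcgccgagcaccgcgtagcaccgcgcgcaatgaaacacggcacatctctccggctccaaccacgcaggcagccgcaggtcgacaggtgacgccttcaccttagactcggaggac
A match is a run of letters and not a measured binding site, and binding was not measured in these samples.

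In the cord the shares of these genes varied widely between libraries. Counted in reads, the 32 measured genes took 0.0722 and 0.0225% of the monocyte libraries at 16 h, 0.0127 and 0.0264% at day 1, 0.103 and 0.0479% at day 3 and 0.413 and 0.166% at day 7. Both day 7 libraries were above the 6 earlier ones. They were also the shallowest, at 133911 and 154256 reads, against 357668 to 731692 in the earlier ones. Genes of mature neutrophils took 0.321 and 0.404% of them, against 0.0926 to 0.279% earlier. For homeostatic microglia genes the shares were 0.252 and 0.401%, against 0.130 to 0.226%. Granule genes of immature neutrophils, at 0.387 and 0.360%, lay within the earlier range of 0.201 to 0.481%. The part of depth and of these cells was not tested. In microglia the share was 0.198, 0.201 and 0.0716% at time 0, 0.263 and 0.283% at 1 h, 0.183 and 0.0534% at 16 h and 0.101 and 0.173% at day 1. It was 0.268 and 0.0448% at day 3 and 0.168 and 0.231% at day 7. The microglia groups overlapped, and the libraries of day 3 held both one of the highest shares and the lowest.

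**Figure D4:**
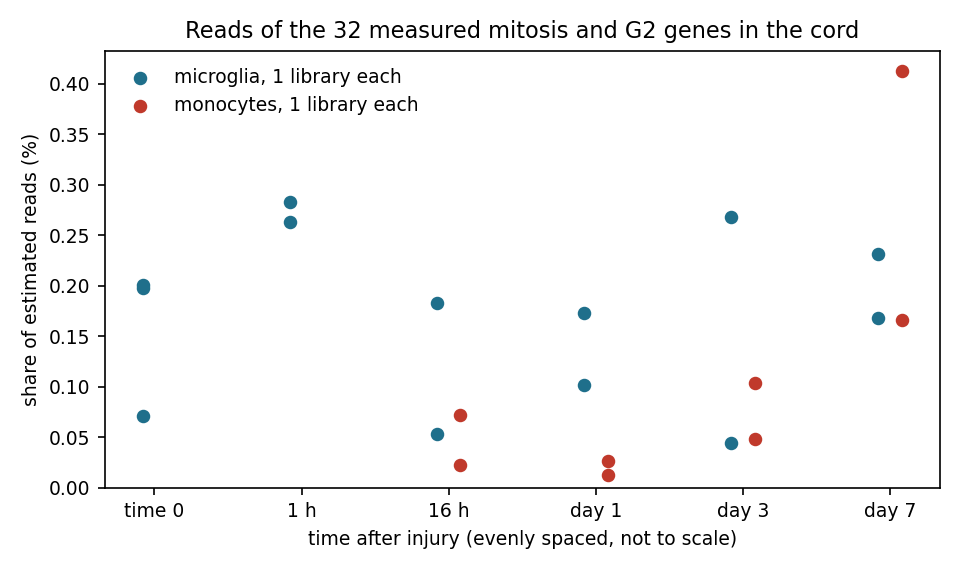
Reads of the 32 measured genes as a percentage of a library's estimated reads (y axis) by time after injury (x axis, evenly spaced), with 1 point per library of cord microglia or monocytes. The monocyte points lie at 0.0127 to 0.103% up to day 3 and at 0.166 and 0.413% at day 7, and the microglia points spread from 0.0448 to 0.283%.

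In monocytes 0 of 32 genes were called by limma at day 3 and day 7 against 16 h and day 1, where 0.840% of all genes were called in either direction. An unadjusted limma p under 0.05 was found for 6 of the 32, all higher, and for 500 of all 8218 genes in either direction. With array weights, which give less weight to libraries that vary more, 11 of 32 were called, among them Mki67, Top2a, Birc5 and Stmn1. In the fit to monocytes alone 1 was. The share of all genes called in these 2 fits is not given here, so these counts cannot be set against it. The fitted change was positive for 31 of 32, with a median of 0.94 beside 0.033 over all genes. Mki67 was at 9.25 and 0.825 at 16 h, 0.550 and 3.17 at day 1, 10.2 and 4.54 at day 3, and 78.3 and 15 at day 7. Both day 7 libraries were the highest (log2 change 2.34, SE 0.83, adjusted p = 0.37). Top2a was at 6.11 and 1.65 at 16 h, 1 and 1.06 at day 1, 8.72 and 1.84 at day 3, and 72.2 and 14.3 at day 7, with the same order (log2 change 2.16, SE 0.86, adjusted p = 0.53). Stmn1 was at 3.31 and 0.353 at 16 h, 1 and 0.528 at day 1, 3.49 and 5.13 at day 3, and 18.6 and 7.75 at day 7. All 4 late libraries were above the 4 acute ones (log2 change 2.01, SE 0.74, adjusted p = 0.41). Aurka was at 0.848 and 0.707 at 16 h, 0.367 and 0.528 at day 1, 2.62 and 0.553 at day 3, and 24.6 and 9.003 at day 7 (log2 change 1.94, SE 0.63, adjusted p = 0.25). It was below 1, the value that stands for no read, in 5 of 8 libraries and high at day 7.

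Birc5 in monocytes was at 1.78 and 1.30 at 16 h, 0.367 and 1.19 at day 1, 4.58 and 1.47 at day 3, and 17.8 and 5.25 at day 7, again highest at day 7 (log2 change 1.60, SE 0.84, adjusted p = 0.92). Cdk1 was at 0.679 and 0.236 at 16 h, 1 and 1.58 at day 1, 1.53 and 2.03 at day 3, and 5.95 and 3.75 at day 7, at few reads throughout (log2 change 1.14, SE 0.72, adjusted p = 1.00). Racgap1 was at 2.55 and 1 at 16 h, 0.855 and 2.64 at day 1, 2.83 and 1.66 at day 3, and 12.7 and 8.25 at day 7. The log2 change was 1.19 (SE 0.74, adjusted p = 1.00). The Cks subunits were low throughout. Cks1b was at 1.19 and 0.353 at 16 h, 1.10 and 1 at day 1, 3.45 and 2.09 at day 3, and 0.850 and 0.750 at day 7 (log2 change 0.46, SE 0.58, adjusted p = 1.00). Cks2 was at 0.636 and 1.35 at 16 h, 0.825 and 1.06 at day 1, 1.18 and 0.184 at day 3, and 1.42 and 0.750 at day 7. Its log2 change was -0.10 (SE 0.61, adjusted p = 1.00). At day 7 against day 3 no gene was called by limma (0.0122% of all genes called). An unadjusted limma p under 0.05 was found for 5 of 32 genes and for 221 of all 8218. For 17 of 32 both day 7 libraries were above both of day 3, and for 1 both were below. This order was not counted over all genes, and with 2 libraries on each side it can arise without a change. Of the other lists, Btg1, which restrains division, fell in monocytes from the acute to the late times (log2 change -2.004, SE 0.41, adjusted p = 0.00897), and no gene of the other mitosis or replication lists was called.

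In microglia 0 of 32 genes were called by limma in each comparison over time. At 1 h against time 0 the median was 0.82, and 6 of 32 genes and 638 of all 8218 had an unadjusted limma p under 0.05 (0.0730% of all genes called). At 16 h and day 1 against time 0 the median was −0.27 with 3 such genes, beside 1141 of all genes (1.52% called). At day 3 and day 7 against time 0 it was −0.30 with 5, beside 1097 of all genes (0.0122% called). At day 3 and day 7 against 16 h and day 1 the median was 0.23 with 3 such genes, beside 1059 of all genes (1.28% called). The medians over all genes were 0, 0.097, 0.054 and −0.019 in the same order. Without time 0 replicate 2, 1 gene was called lower against time 0 at the acute and 1 at the late times. Mki67 was at 24.9, 47.7 and 14.01 at time 0, 41.5 and 48.2 at 1 h, 14.5 and 9.88 at 16 h, 16.1 and 42.6 at day 1, 81.5 and 1 at day 3, and 11.3 and 29.1 at day 7, with the highest and the lowest value both at day 3. Top2a was at 9.95, 48.1 and 14.01 at time 0, 25.6 and 39.5 at 1 h, 27.9 and 0.988 at 16 h, 13.3 and 25.3 at day 1, 31.7 and 1 at day 3, and 11.3 and 45.7 at day 7, and its groups overlapped. Cdk1 was at 1, 5.66 and 1 at time 0, 7.67 and 25.5 at 1 h, 5.99 and 4.94 at 16 h, 3.34 and 32.2 at day 1, 12.3 and 1 at day 3, and 15.04 and 4.15 at day 7. It was above time 0 in both 1 h libraries (log2 change 2.34, SE 0.93, adjusted p = 0.49). Aurka had no read in any library of time 0 or day 7, and was at 6.82 and 14 at 1 h, 11.98 and 4.94 at 16 h, 2.22 and 18.4 at day 1, and 5.28 and 1 at day 3 in between (log2 change 2.06, SE 0.68, adjusted p = 0.12 for 16 h and day 1 against time 0).

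Birc5 in microglia was at 14.9, 25.5 and 1 at time 0, 14.9 and 35.6 at 1 h, 2.99 and 10.9 at 16 h, 3.34 and 17.3 at day 1, 15.8 and 1 at day 3, and 15.04 and 1 at day 7, with no read in 3 libraries. Stmn1 was at 21.01, 18.4 and 4.67 at time 0, 24.7 and 19.9 at 1 h, 0.499 and 7.74 at 16 h, 1.11 and 4.22 at day 1, 15.8 and 1 at day 3, and 12.5 and 22.1 at day 7. It was lower at 16 h and day 1 than in 2 of the 3 time 0 libraries (log2 change -1.95, SE 0.80, adjusted p = 0.25). Racgap1 was at 14.4, 2.83 and 1 at time 0, 20.5 and 5.09 at 1 h, 11.3 and 2.96 at 16 h, 4.45 and 1 at day 1, 1 and 4.02 at day 3, and 15.04 and 1 at day 7. The groups of both genes overlapped. Cks1b was at 13.3, 8.02 and 1 at time 0, 5.54 and 9.12 at 1 h, 3.83 and 3.95 at 16 h, 1 and 2.30 at day 1, 1 and 1 at day 3, and 3.76 and 1 at day 7 and Cks2 at 1, 0.944 and 13.2 at time 0, 3.06 and 2.02 at 1 h, 4.41 and 0.247 at 16 h, 5.003 and 0.576 at day 1, 4.40 and 1 at day 3, and 1 and 1 at day 7, with no read in 5 and 4 of the 13 libraries. From the other lists, the condensin subunit Ncapd2 (log2 change -3.004, SE 0.74, adjusted p = 0.0294) and the helicase subunit Mcm6 (log2 change -3.07, SE 0.66, adjusted p = 0.00968) fell and Gadd45b, a stress-induced gene, rose (log2 change 3.48, SE 0.72, adjusted p = 0.007) at 16 h and day 1 against time 0.

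At 16 h and day 1, monocytes were below microglia for 29 of 32 genes, with a median of −0.81 beside 0 over all genes. At a share near that of all genes called lower (1.91%), 1 of the 32 genes was called. This was Aurka, at 0.848 and 0.707 at 16 h and 0.367 and 0.528 at day 1 in monocytes against 11.98 and 4.94 at 16 h and 2.22 and 18.4 at day 1 in microglia, with no overlap (log2 change -2.38, SE 0.63, adjusted p = 0.0286). The call was kept in 9 of the 18 alternatives, with adjusted p from 0.0017 to 0.50. It was lost without microglia 16 h replicate 1, without microglia day 1 replicate 2 and without any of the 4 monocyte libraries, and Cdk1 joined it, giving 2, without microglia day 1 replicate 1. At day 3 and day 7 limma called 0 of 32 (median −0.18 beside 0.10 over all genes, 2.59% of all genes called). Prc1 was the 1 gene with an unadjusted limma p under 0.05, beside 1321 of all 8218 genes. The difference between the monocyte and the microglia change from acute to late times was called for none. Its median was 0.68 beside 0.088 over all genes (0.0122% of all genes called). Aurka and Mki67, 2 of 32, had an unadjusted limma p under 0.05, beside 443 of all genes.

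The libraries labelled microglia also held transcripts of neutrophils, some of whose precursors divide. Granule genes made by immature neutrophils, such as Camp, Ltf and Ngp (10 of 10 measured), took 5.39 to 10.4% of the microglia libraries at time 0, 8.05 to 11.03% at 1 h, 4.45 to 7.31% at 16 h and 2.13 to 3.05% at day 1. They took 1.52 to 6.85% at day 3 and 6.01 to 6.83% at day 7, and 0.201 to 0.481% of the monocyte libraries. Of these, Ctsg had no read in either library at 16 h, day 1 and day 7, nor Mpo at day 1. Genes of mature neutrophils (11 of 12) took 3.26 to 13.8% of the microglia libraries and homeostatic microglia genes (8 of 10) 0.122 to 0.859%, against 0.130 to 0.401% of the monocyte libraries. Over the 13 microglia libraries the share of the mitosis genes went with that of the granule genes (Pearson's r 0.71, Spearman's rho 0.76, r 0.56 over the 11 left without the 2 farthest), as a description with no test, since the libraries share the times. For the genes of mature neutrophils r was 0.72, rho 0.76 and r without the 2 farthest 0.53, as close as for the granule genes. For the homeostatic genes r was −0.45, rho −0.36 and r without the 2 farthest −0.10. For the estimated reads r was 0.19, rho 0.28 and r without the 2 farthest 0.30. The part of neutrophils and their precursors in the microglia values was not tested.

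**Figure D5:**
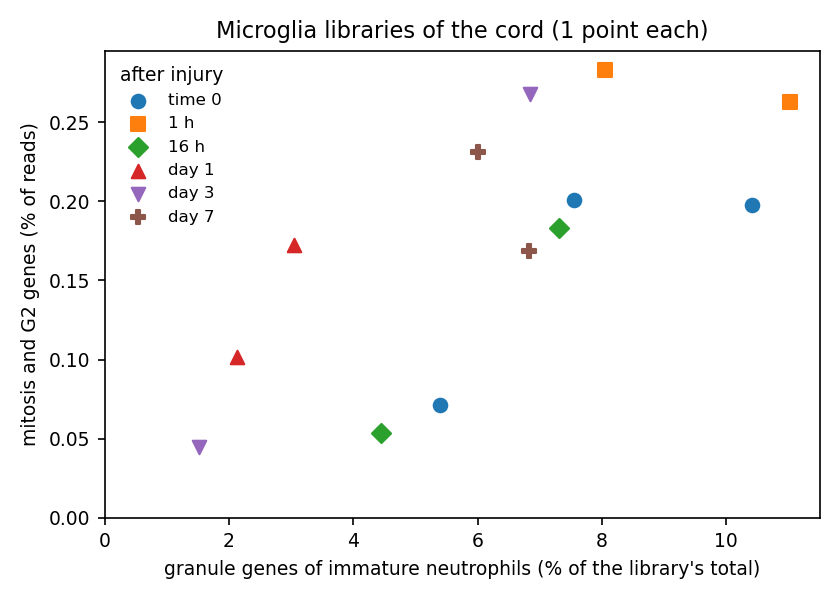
Share of reads of the 32 measured genes (y axis, %) against the share of the library's total in granule genes of immature neutrophils (x axis, %), with 1 point per cord microglia library and markers by time after injury. The libraries of 1 h are high on both axes, at 8.05 and 11.03% of granule genes, and day 3 replicate 2 is the lowest on both, at 1.52%.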

How the data were processed

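The submitters' processing notes name TopHat as a tool and mm9 as the genome build. For the tool's version, the read counter, the annotation and the scaling, nothing was found in the labels or files. The deposited tables hold a signal per gene, which the authors appear to have made by scaling read counts per library. Per library, 86.5 to 90.3% of values of up to 20 reads were whole multiples of a single step (tolerance 0.05 steps), taken as the value of 1 read, and the others were fractions, so no count model was fitted where the plan had allowed for counts. The tables were scaled separately, and no level was compared between them or between genes. A line without a gene name was left out (at most 0.0165% of a cord and 0.0140% of a culture library). The time tag of microglia 1 h replicate 2 in culture reads 2 h where its title reads 1 h, and the title was used.

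For each table, limma 3.58.1 (R 4.3.3) fitted a mean per group to log2(value + 1), with the spread taken from every group together and moderated by empirical Bayes with its trend and robust options. Benjamini-Hochberg adjustment covered the whole table in each contrast. Groups of 1 or 2 libraries were assumed to vary like the others. A difference between cell types was tested as a contrast of contrasts. Tables were handled with Python 3.11.15, pandas 2.3.3 and numpy 2.4.6, and figures drawn with matplotlib 3.10.9. Promoter sequences are RefSeq's (GRCm38.p6).

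The genes, the lists and the rules were chosen with earlier results of these data known. Values by library are given for many of the genes called in a comparison (beyond 10, of those with the smallest p), for some only at the times compared. They are given in every library for Mki67, Top2a, Cdk1, Ccnb1, Birc5, Cks1b, Cks2, Stmn1 and Racgap1 where measured. Genes of other lists are named by the 4 smallest p among those called. Libraries were not treated as paired. Deviations of libraries with the same number (in culture, the same header letter) correlated at −0.05 to 0.06, which shows no pairing but cannot exclude one. Alternatives covered the pseudocount, low values, scaling, array weights, the trend, the groups fitted, replicate blocks and each library left out. Intervals for single counts are not given, because the depth per gene is known only through the step.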

Additional observations from a re-analysis of the deposited data

Results flagged for a closer look

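The cultured cell types differed in their response under the same contrast. The test of the difference between the changes at 16 and 20 h of TGFb1 against 0 h passed in limma for 21 of the 40 mitosis and G2 genes (adjusted p under 0.05), all with the macrophage change above the microglia one, and that at 3 and 6 h for 4. A set of 4 genes was also called in both cell types alone, in opposite directions. On the log2 scale the difference at 16 and 20 h was 2.85 for Ube2c (SE 0.28), 2.15 for Nusap1 (SE 0.33), 2.09 for Birc5 (SE 0.29) and 1.67 for Cenpa (SE 0.26). Every group had 3 libraries or fewer, so no single library was tested as standing apart.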

How the results depend on the processing

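Counts are of genes called among the 40 in culture or 32 in the cord. The share of all genes called under each alternative is not given here, so a move need not be particular to these genes. In macrophages at 16 and 20 h against 0 h (17 called), array weights gave 9, the fit with a replicate block 11 and leaving out a library 8 to 15. At 3 and 6 h (2 called), quantile scaling, array weights, no trend, the fit to the cell type alone and the replicate block gave 1 each, and leaving out a library 1 to 2. From 3 and 6 h to 16 and 20 h (10 called), a pseudocount of 10 gave 18, equal totals 16 and leaving out a library 7 to 16. In microglia at 16 and 20 h (12 called), a pseudocount of 10 gave 7 and leaving out a library 4 to 12. At 3 and 6 h (0 called), a pseudocount of 10, values under 5 set to 5, a filter at a mean of 5 and the fit to the cell type alone gave 1 each, quantile scaling and array weights 4 each, the block by header letter, added after seeing the data, 2, and leaving out a library 0 to 2. From 3 and 6 h to 16 and 20 h (3 called), a pseudocount of 10 gave 0, quantile scaling 5, no trend 1 and leaving out a library 0 to 2. For macrophages against microglia the range without a library was 27 to 33 at 0 h (34 called) and 40 to 40 at 16 and 20 h, and for the difference of the changes 2 to 6 at 3 and 6 h (4) and 13 to 22 at 16 and 20 h (21). In the cord, array weights gave 11 and the fit to the cell type alone 1 in monocytes, late against acute (0), and array weights 2 at day 7 against day 3 (0). For monocytes against microglia, acute (1), a pseudocount of 0.1 gave 2, a pseudocount of 10, values under 5 set to 5 and quantile scaling 0 each, array weights 6, and leaving out time 0 replicate 3 and day 3 replicate 2 of microglia, chosen after seeing the data, 2, and a single library 0 to 2. Leaving out a library gave 0 to 1 for microglia acute and late against time 0, and 0 in the remaining comparisons.

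The replicate numbers were not shown to pair libraries. In culture the replicate block was fitted to macrophages alone, where it changed the counts as given (17 to 11 and 2 to 1). It moved no other macrophage count and no cord count by over 1.5 times. Cultured microglia and the contrasts between cultured cell types were blocked by header letter only. The causes of these moves were not tested. Over 3935 values of single genes under the alternatives, 3730 kept their side of the threshold, 162 lost a call, 43 gained one and none that was called changed sign. The 3935 include genes that were not called to begin with. For called genes, 95 of 618 values with a library left out and 67 of 820 under the other alternatives lost the call. Depth limits the cord microglia most, where 1 read was worth up to 4.67.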
